A study of Mus musculus with 6 samples.

Results

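Autophagy and lysosome genes were followed in MIN6 cells, a line of mouse beta cells that secretes insulin in culture. The set holds 43 genes of 55487 in the deposited count table. They were picked by symbol as lysosomal genes of the kind that the transcription factor TFEB controls, subunits of the proton pump V-ATPase, and core autophagy genes. Of these, 19 act in autophagy, 22 in the lysosome, and 2 encode the transcription factors TFEB and TFE3. In 3 libraries the cells carried full-length parathyroid hormone-related protein (PTHrP, a secreted peptide encoded by Pthlh), and in 3 libraries they carried the DsRed vector as the control. Both groups were transfected at confluency with lipofectamine 2000, so exposure to the reagent and to plasmid was shared. RNA was taken at most 3 days later. The series title names stress of the endoplasmic reticulum under PTHrP as its subject, and the comparison here asks whether the transcripts of the degradation machinery differed between the PTHrP and DsRed groups. No label says that transfected cells were sorted from the others, or that replicates came from separate cultures.

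Autophagy is the route by which a cell wraps parts of its own cytoplasm in a double membrane and delivers them to the lysosome. A kinase complex with ULK1 and ATG13 starts the process, a lipid kinase complex with BECN1 and ATG14 marks the forming membrane, and conjugation enzymes attach small ubiquitin-like proteins of the ATG8 family to it. The lysosome then digests the cargo with acid hydrolases, which need the low pH that V-ATPase keeps. TFEB and TFE3 are basic helix-loop-helix factors that enter the nucleus when the kinase complex mTORC1 is inactive at the lysosome, and they bind a palindromic E-box in the promoters of many lysosomal genes. Beta cells use the same route to turn over insulin granules and damaged organelles.

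The libraries held 84427033 to 94613684 gene counts, and 21141 genes passed the filter on low counts, all 43 among them. Levels are given as CPM, counts set against the size of the library, after TMM scaling, a correction for differences in composition between libraries. The counts of Pthlh were 697, 553 and 797 with PTHrP and 0, 4 and 8 with DsRed. Summed markers of the beta cell took 49036 to 55523 CPM in PTHrP and 50497 to 62516 CPM in DsRed, and the hormone gene Ins2 led them. Summed macrophage markers, of interest because macrophages are rich in lysosomal transcripts, took 2.15 to 2.75 CPM in PTHrP and 2.99 to 3.60 CPM in DsRed, and 5 of their 8 genes could be tested. Fibroblast markers summed to 4.47 to 4.69 CPM in PTHrP and 4.73 to 5.13 CPM in DsRed. Acinar and ductal markers, with Ptf1a at 0, summed to 2.10 to 2.63 CPM and 1.85 to 3.20 CPM. Markers of other islet endocrine cells, led by Gcg, summed to 135 to 175 CPM and 145 to 153 CPM. The part of these markers in the results was not tested. PTHrP replicate 2 stood apart from the other libraries. It had the lowest quality weight of the 6 (limma's estimate of a library's precision), 0.338 against 0.715 to 2.13, and was the highest or the lowest library in 46.4% of all genes tested and in 26 of the 43 genes (60.5%). Where the fold change of a named gene is given and moved by over 1.5 times without it, both values are given.

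None of the 43 genes passed an adjusted p of 0.05 between PTHrP and DsRed in edgeR's quasi-likelihood test, where 9 of all genes tested passed (0.0426%), 4 higher (0.0189%) and 5 lower (0.0237%). The smallest adjusted p among the 43 was 0.252, for Mcoln1. At an unadjusted p under 0.05 there were 7 of the 43 (16.3%), 6 higher and 1 lower with PTHrP, against 8.9% of all genes (4.92% higher and 3.98% lower). In a fit kept to genes with at least 1 CPM in 3 libraries, 8 of the 43 were under 0.05, against 1569 of 13202 genes. The count past the adjusted threshold was also 0 in DESeq2, where 0.643% of all genes passed, and 0 in limma-voom, and it was 2 in limma-voom with library quality weights, where 1.2% of all genes passed. In 11 of the 43 the PTHrP and DsRed libraries did not overlap, 10 with PTHrP higher and 1 with PTHrP lower, against 16.3% of all genes (8.45% higher and 7.88% lower).

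Differences were small throughout the set. Fold changes, PTHrP over DsRed on the log2 scale, ran from -0.35 for Gla to 0.26 for Mcoln1, with 28 positive, 15 negative and a median of 0.04. Over all genes tested the median was -0.01, and 48.7% were positive. The approximate 95% interval of 32 of the 43 (74.4%) lay wholly inside a 1.2-fold change in either direction, against 20.8% of all genes. The 43 were also measured more precisely, with a median SE of 0.0645 against 0.185 over all genes tested. The part of that precision in the share was not tested. The 22 lysosomal genes had a median of 0.07, with 16 positive. Of them 9 were non-overlapping with PTHrP higher (40.9%, against 8.45% of all genes) and 1 with PTHrP lower (4.55%, against 7.88%). The 19 autophagy genes had a median of 0.02, with 11 positive and 1 non-overlapping gene, higher with PTHrP (5.26%, against 8.45%). These are counts of related genes measured in the same 6 libraries, so they describe the set and are no test of it. In bulk RNA, fewer cells of a kind and less RNA per cell cannot be told apart.

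**Figure D1:**
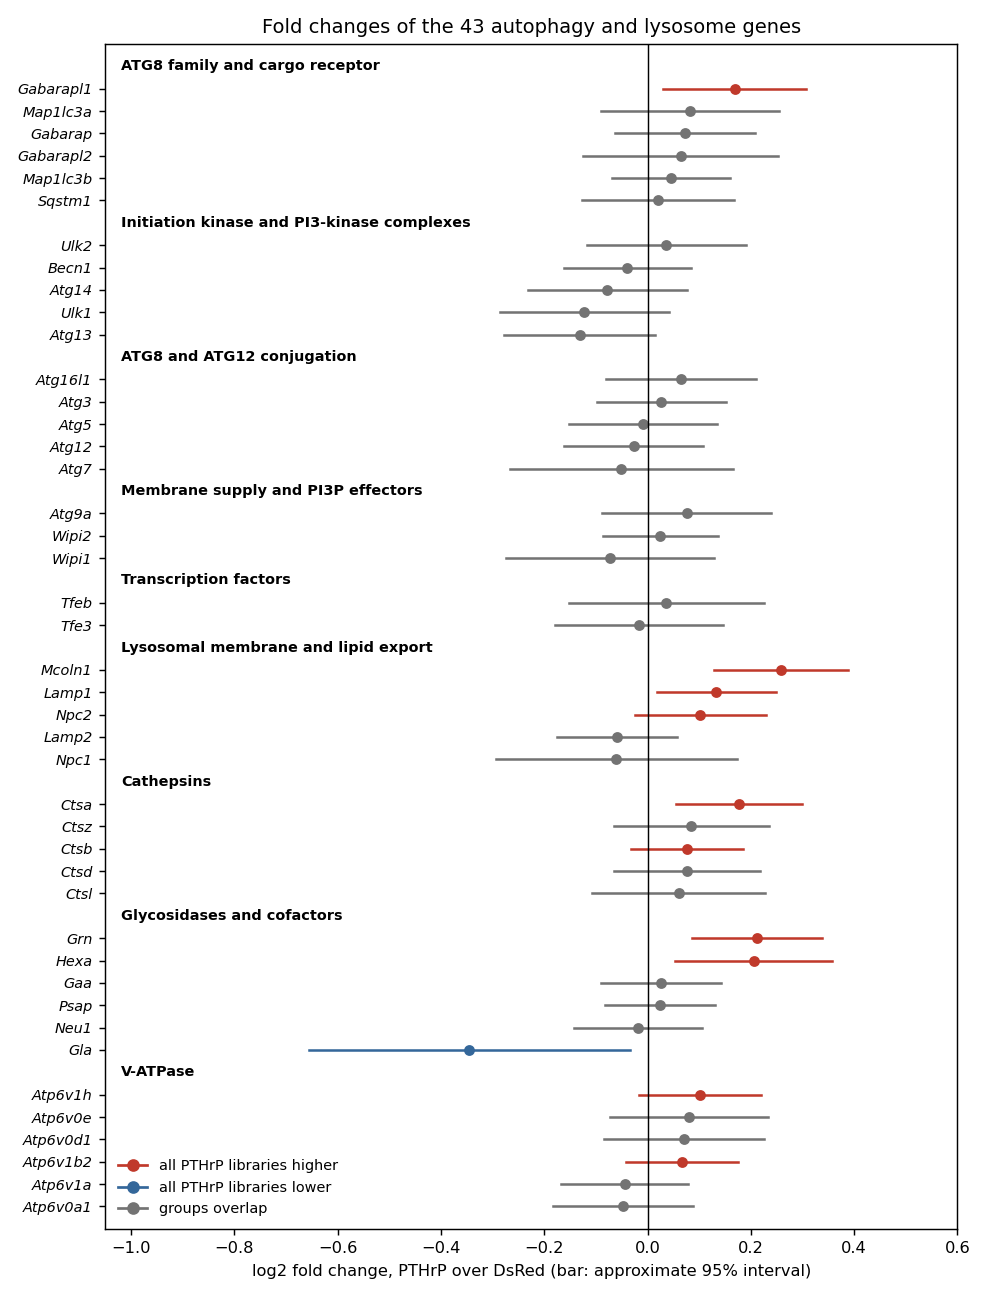
Log2 fold change of each of the 43 genes, PTHrP over DsRed, with approximate 95% intervals and 3 libraries per group, grouped by role. The median is 0.04, with Mcoln1 at 0.26 as the highest and Gla at -0.35 as the lowest.

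The fold changes tended to be higher for short transcripts (Spearman's rho -0.46 with transcript length across the 43 genes, which share the same 6 libraries), and rho was -0.25 without PTHrP replicate 2. The part of transcript length in the results was not tested.

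Promoter sequence is shown for some of the genes because the set was drawn up around TFEB and TFE3, whose E-box can be read directly from it. RefSeq promoter windows (GRCm38.p6, 250 bases before to 50 after the transcript start) were found for 35 of the 43 genes, and none was used for Map1lc3a, Becn1, Atg12, Atg16l1, Npc1, Ctsb, Atp6v1b2 and Atp6v1h. The core letters CACGTG were in the windows of 14 of 35 (40%), against 10.8% of tested genes with a window and 8.09% of all genes with one. The longer TCACGTGA was in 8 of 35 (22.9%), against 1.84% and 1.12%. Those 8 were Atg3, Mcoln1, Ctsa, Ctsd, Gla, Atp6v0d1, Atp6v0e and Atp6v1a. Each motif reads the same on both strands, and the longer contains the shorter. Because TFEB-type genes were chosen for the set, its share of E-boxes is not an independent result, and a match of letters is not a bound site. Stretches from 6 windows follow in the direction of transcription, in lower case with CACGTG or TCACGTGA in capitals. Mcoln1, Lamp1 and Ctsa are shown as genes with these letters that were higher without overlap, and Gla as one that was lower. Atg3 and Atp6v1a are shown as genes with the same letters whose groups overlapped. Grn, Hexa, Npc2 and Gabarapl1 were also higher without overlap, and their windows held no CACGTG. Ctsb, Atp6v1b2 and Atp6v1h, higher without overlap too, had no window.
Mcoln1, chr8:3500464-3500489 (+): gcgccccgcTCACGTGAccgcggcgc
Lamp1, chr8:13159090-13159160 (+): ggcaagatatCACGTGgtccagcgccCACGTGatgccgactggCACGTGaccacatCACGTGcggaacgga
Ctsa, chr2:164833751-164833772 (+): agcaaactgTCACGTGAtgcag
Gla, chrX:134601184-134601242 (-): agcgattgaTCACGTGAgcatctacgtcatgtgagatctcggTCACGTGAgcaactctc
Atg3, chr16:45158725-45158773 (+): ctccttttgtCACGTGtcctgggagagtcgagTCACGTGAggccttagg
Atp6v1a, chr16:44139375-44139400 (-): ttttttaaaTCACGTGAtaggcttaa

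Distances were counted from the RefSeq transcript start to the first base of CACGTG. The match shown lay 45 bases before that start in Mcoln1, 12 in Ctsa and 131 in Atp6v1a. The 2 matches of Gla lay 227 and 194 bases before its RefSeq start. The stretches of Mcoln1, Ctsa and Atp6v1a lay inside the GENCODE spans of their genes, so they were not upstream of every annotated start. Lamp1 had 4 copies of CACGTG between 61 and 15 bases before its start and no TCACGTGA. The 8 genes with TCACGTGA held both ends of the range, from Gla at -0.35 to Mcoln1 at 0.26, with 6 positive and a median log2 fold change of 0.07. The 27 with a window and no TCACGTGA had 17 positive and a median of 0.03.

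The factors themselves differed little. Tfeb was a low transcript, at 21.6, 23.7 and 23.8 CPM in PTHrP and 23.2, 23.4 and 20.8 CPM in DsRed (log2 fold change 0.04, SE 0.09, adjusted p = 0.932), and 0.02 without PTHrP replicate 2. Tfe3 was present at 122, 101 and 117 CPM in PTHrP and 118, 111 and 115 CPM in DsRed. Its fold change of -0.02 (adjusted p = 0.966) turned to 0.06 without PTHrP replicate 2, the lowest library. The groups overlapped for both genes. Transcript levels say nothing of where the proteins were in the cell, which is where their activity is set.

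Among lysosomal membrane proteins, Mcoln1 (chr8:3500457-3515232 of GRCm38) had the smallest p of the set. It encodes TRPML1, the channel that lets calcium out of the lysosome, a signal known to bring TFEB to the nucleus. It had 187, 171 and 189 CPM with PTHrP and 148, 153 and 157 CPM with DsRed. All PTHrP libraries lay above all DsRed libraries, with the closest pair being PTHrP replicate 2 and DsRed replicate 3. The means were 183 ± 9.68 and 153 ± 4.36 CPM (SD, n = 3), and the log2 fold change was 0.26 (SE 0.06, 95% interval 0.13 to 0.39, adjusted p = 0.252). Its fold change stayed between 0.23 and 0.30 when each library was left out in turn. Without PTHrP replicate 2 it was 0.30 and passed, with an adjusted p of 0.00735, where 213 genes passed (0.954%). Over the 15 alternatives its adjusted p ran from 0.00735 to 0.949.

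Lamp1 (chr8:13159161-13175338), a major glycoprotein of the lysosomal membrane, stood at 966, 1048 and 975 CPM in PTHrP and 884, 921 and 921 CPM in DsRed. The groups did not overlap, although the log2 fold change was only 0.13 (SE 0.05, adjusted p = 0.487). Npc2, which hands cholesterol to the exporter NPC1, had 137, 147 and 140 CPM in PTHrP against 127, 136 and 133 CPM in DsRed (0.10, adjusted p = 0.650), also without overlap. Not every membrane or lipid export gene leaned this way. Lamp2, whose isoforms include the receptor of chaperone-mediated autophagy, had a fold change of -0.06 (adjusted p = 0.802). Npc1 was the lowest of the set per length and stood at -0.06 (adjusted p = 0.910), or 0.04 without PTHrP replicate 2. It shares exon bases with Rmc1 on the opposite strand, whose counts were higher, so its level is uncertain.

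All 5 cathepsins, the lysosomal proteases, had positive fold changes between 0.06 and 0.18 with a median of 0.08, and none passed. Ctsa (chr2:164832873-164841032), a carboxypeptidase that also protects neuraminidase, had 396, 391 and 401 CPM in PTHrP and 328, 358 and 365 CPM in DsRed. The PTHrP libraries were close together and above all of the DsRed libraries, of which replicate 1 was the lowest. The log2 fold change was 0.18 (SE 0.06, adjusted p = 0.378), and 0.20 with an adjusted p of 0.0481 in limma-voom with quality weights, where 254 genes passed (1.2%). Its adjusted p over all alternatives ran from 0.0481 to 0.951. Ctsb, a cysteine protease, had 594, 596 and 583 CPM against 546, 577 and 558 CPM, again without overlap (0.08, adjusted p = 0.697). The aspartic protease Ctsd (0.08), Ctsz (0.08) and Ctsl (0.06) overlapped between groups. PTHrP replicate 2 was the highest library in 4 of the 5 cathepsins, and without it the fold change was 0.02 for Ctsd, 0.03 for Ctsz and -0.04 for Ctsl.

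The glycosidases and their cofactors ran from -0.35 to 0.21, with 4 of 6 positive. Grn (chr11:102430315-102437048) encodes progranulin, a secreted protein that is cut into granulins in the lysosome. It had 485, 527 and 473 CPM in PTHrP and 411, 433 and 438 CPM in DsRed, with no overlap. The log2 fold change was 0.21 (SE 0.06, adjusted p = 0.338), and 0.17 without PTHrP replicate 2. Hexa (chr9:59539540-59565109), a subunit of the hexosaminidase that breaks down gangliosides, had 425, 512 and 451 CPM in PTHrP and 386, 408 and 410 CPM in DsRed. PTHrP replicate 2 was far above the rest, so that the fold change of 0.21 (SE 0.07, adjusted p = 0.404) was 0.13 without it.

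Gla (chrX:134588149-134601125) encodes alpha-galactosidase A, which clears globotriaosylceramide. It was the only gene of the 43 whose PTHrP libraries all lay below the DsRed libraries, at 51.3, 35.3 and 53.0 CPM against 58.3, 62.6 and 56.6 CPM. PTHrP replicate 2 was much the lowest, and the remaining PTHrP libraries were just under the DsRed range. The log2 fold change of -0.35 (SE 0.14, adjusted p = 0.508) was -0.18 without that library. Gla passed with an adjusted p of 0.0181 when genes of low counts were kept in the fit, where 220 genes passed (0.495%), and the alternatives ran from 0.0181 to 0.960. Gaa, which degrades lysosomal glycogen, had 1678, 1564 and 1583 CPM in PTHrP and 1520, 1652 and 1569 CPM in DsRed (0.03, adjusted p = 0.924). Psap, the precursor of the saposins that present lipids to these enzymes, had 1595, 1542 and 1571 CPM against 1501, 1597 and 1532 CPM (0.02, adjusted p = 0.922). The sialidase Neu1 had a fold change of -0.02. The abundant Gaa and Psap transcripts lay within the spread of the libraries, with 95% intervals of -0.09 to 0.14 and -0.08 to 0.13, and they had 0.05 and 0.04 without PTHrP replicate 2.

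**Figure D2:**
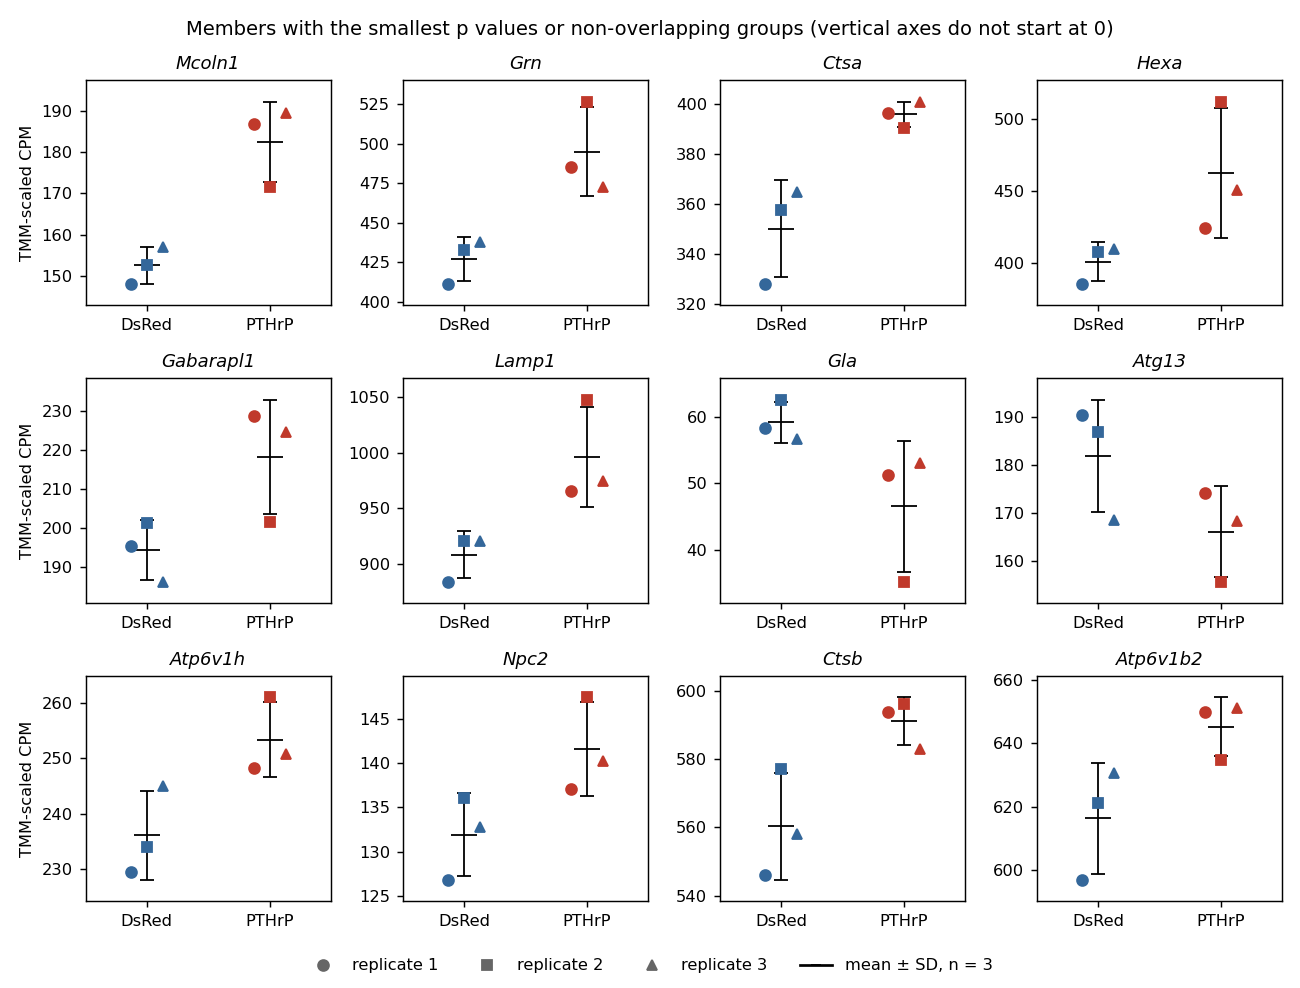
TMM-scaled CPM of single genes in the 3 DsRed and 3 PTHrP libraries, with mean ± SD; the vertical axes do not start at 0. The panels are the 11 of the 43 genes whose groups do not overlap, and Atg13, the overlapping gene of smallest p. Separation of the groups in the other panels therefore follows from that choice. PTHrP replicate 2 is the highest library for Grn, Hexa and Lamp1 and the lowest for Gla.

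V-ATPase consists of a membrane sector that carries protons and a cytosolic sector that hydrolyses ATP. In the cytosolic sector, Atp6v1h, the regulatory subunit H, had 248, 261 and 251 CPM in PTHrP and 229, 234 and 245 CPM in DsRed (0.10, adjusted p = 0.621). Atp6v1b2, the widely expressed B subunit of the nucleotide-binding ring, had 650, 635 and 651 CPM in PTHrP and 597, 621 and 631 CPM in DsRed (0.07, adjusted p = 0.746). Both were without overlap, while Atp6v1a, the catalytic subunit of the same ring, stood at -0.04 with overlap and at 0.00 without PTHrP replicate 2. In the membrane sector, Atp6v0a1 had -0.05, Atp6v0d1 0.07 and Atp6v0e 0.08, all overlapping. Without PTHrP replicate 2, Atp6v0a1 was -0.01 and Atp6v0e 0.03. For Atp6v0d1 the DsRed libraries were 246, 249 and 252 CPM and the PTHrP libraries 266, 233 and 285 CPM, with replicate 2 lowest, and the fold change without it was 0.15 (adjusted p = 0.174, and up to 0.997 under other alternatives).

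The a subunit exists in 4 forms that direct the pump to different membranes, and all were measured. Scaled by transcript length, Atp6v0a1 made up 82.3% ± 0.173 of their summed level in DsRed and 82.0% ± 0.401 in PTHrP (SD, n = 3). Atp6v0a2 made up 13.6% and 13.4%. Tcirg1, the form best known from osteoclasts, made up 4.15%, 3.65% and 4.12% in DsRed and 4.67%, 4.22% and 4.79% in PTHrP. These shares did not overlap, but the CPM of Tcirg1 did overlap between groups (adjusted p = 0.719 in edgeR's quasi-likelihood test). A share also depends on the other forms. Mean CPM per kilobase was 5.08 in PTHrP and 4.54 in DsRed for Tcirg1, 91.2 and 94.3 for Atp6v0a1, and 14.9 and 15.5 for Atp6v0a2. Whether the shares differed between groups was not tested. Atp6v0a4, the kidney form, was a trace transcript, at 0.108% in DsRed.

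On the autophagy side, the ATG8 family and the cargo receptor Sqstm1 had 6 positive fold changes out of 6 with a median of 0.07, and PTHrP replicate 2 was the highest library in 5 of them. Without it, Gabarapl2 was -0.04, Map1lc3a -0.02 and Sqstm1 -0.06, while Gabarap was 0.03, from 0.07, and Map1lc3b 0.02, from 0.04. Gabarapl1 (chr6:129533160-129542346) was the exception to that library pattern. It had 228.9, 201.5 and 224.5 CPM in PTHrP and 195.2, 201.3 and 186.1 CPM in DsRed, so that PTHrP replicate 2 was level with the highest DsRed library and the other two were well above. Its log2 fold change of 0.17 (SE 0.06, adjusted p = 0.463) was 0.23 without PTHrP replicate 2, with an adjusted p of 0.0420, the smallest of its alternatives, which ran up to 0.949.

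Sqstm1 encodes p62, which ties ubiquitinated cargo to ATG8 proteins and is itself degraded with it. It was the highest of the 43 per length. Its levels were 1686, 1938 and 1639 CPM in PTHrP and 1642, 1749 and 1800 CPM in DsRed, and the groups overlapped (0.02, SE 0.07, adjusted p = 0.952). Within the ATG8 family, scaled by length, Map1lc3a made up 28.4% ± 0.397 of the summed level in DsRed, Gabarap 26.5% ± 0.828, Map1lc3b 20.1% ± 0.706, Gabarapl1 14.8% ± 0.698 and Gabarapl2 10.2% ± 0.237. In PTHrP the shares were 28.3%, 26.3%, 19.6%, 15.7% and 10.0% in that order. The share of Gabarapl1 was 13.6% to 17.2% over the PTHrP libraries and 13.99% to 15.32% over the DsRed libraries, which overlapped. These shares depend on which transcript is used for length, as Map1lc3b took 9.21% in DsRed when lengths came from all annotated exons.

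Of the 5 initiation genes, 4 had negative fold changes, with a median of -0.08, and none passed. Atg13, the adaptor of the ULK1 kinase, had 174, 156 and 168 CPM in PTHrP and 190, 187 and 169 CPM in DsRed, which overlapped. Its log2 fold change was -0.13 (SE 0.07, adjusted p = 0.602), and -0.09 without PTHrP replicate 2. The kinase gene Ulk1 had -0.12 (adjusted p = 0.678), and -0.06 without that library. The lipid kinase subunits Atg14 (-0.08) and Becn1 (-0.04) and the related kinase gene Ulk2 (0.04) were closer to 0, and without that library Atg14 was -0.05 and Ulk2 0.01. PTHrP replicate 2 was the lowest library in 3 of these 5 genes.

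The enzymes and scaffolds that conjugate ATG8 proteins had fold changes between -0.05 for Atg7, the activating enzyme, and 0.07 for Atg16l1, the scaffold that sites the reaction on the membrane. Atg3, the conjugating enzyme, had 90.9, 91.1 and 88.3 CPM in PTHrP and 89.9, 88.5 and 86.9 CPM in DsRed (fold change 0.03). Atg5 (-0.01) and Atg12 (-0.03), which are joined to each other before they act, were as near to 0. Atg9a, the lipid scramblase carried on vesicles, had 0.08, and the phosphoinositide-binding Wipi2 and Wipi1 had 0.02 and -0.07. All 8 genes overlapped between groups. Without PTHrP replicate 2, Atg5 was -0.04, Atg12 -0.05, Atg16l1 0.10, Atg9a 0.13 and Wipi2 0.04.

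**Figure D3:**
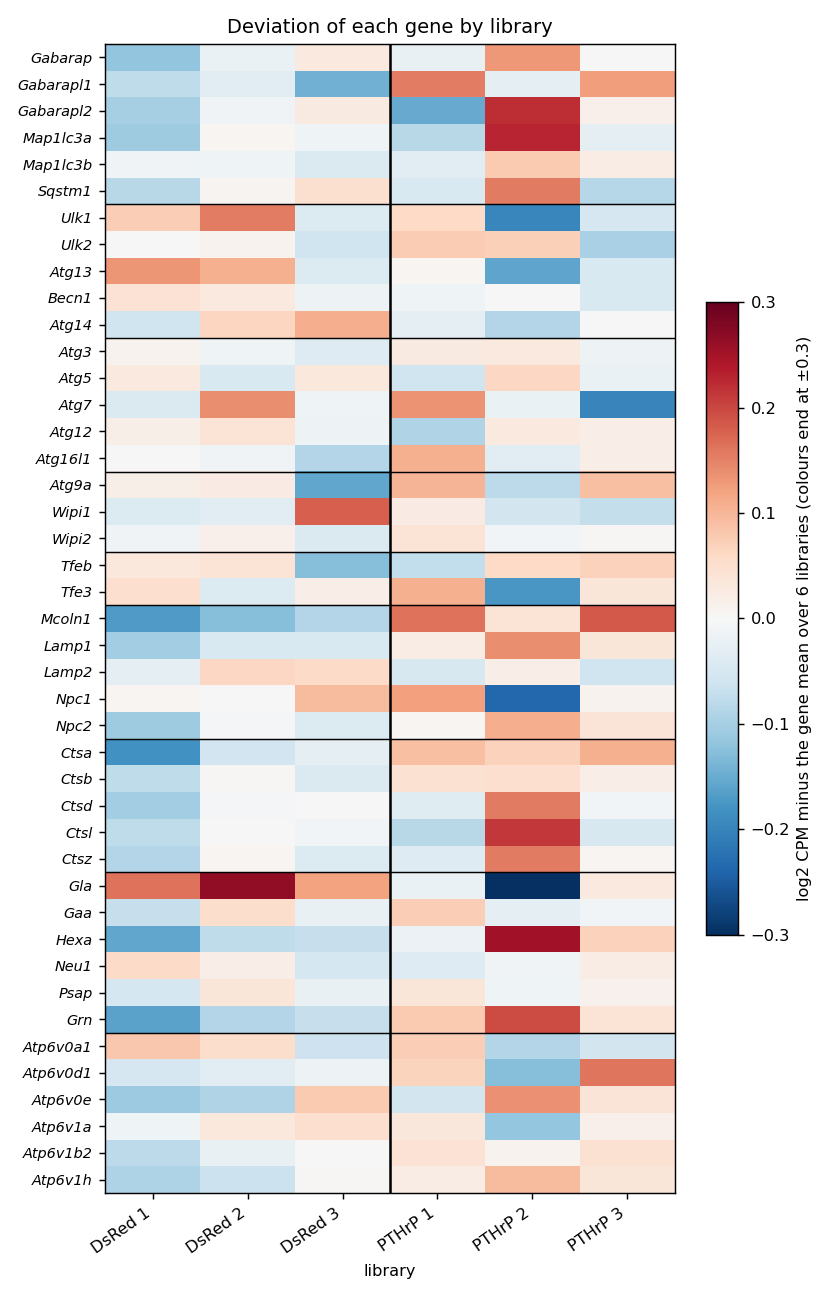
Deviation of each gene in each library from its own mean over the 6 libraries, on the log2 CPM scale, with colours ending at ±0.3. The column of PTHrP replicate 2 is the most strongly coloured, high in the ATG8 family and the cathepsins and low in Gla and in initiation genes.

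PTHrP replicate 2 lay further from its group than the other PTHrP libraries did from each other. Over the 43 genes, the median gap between PTHrP replicate 2 and the mean of the other PTHrP libraries was 0.101 on the log2 scale, against 0.0423 between PTHrP replicates 1 and 3. The median SD across replicates was 0.0811 in PTHrP and 0.0513 in DsRed, and over all genes tested it was 0.207 and 0.167. PTHrP replicate 2 was the highest of the 6 libraries in 17 of the 43 and the lowest in 9. The genes in which it was highest had a median transcript length of 2127 bases, and those in which it was lowest 3729 bases. Other libraries differed too. In the same order the lengths were 3455 and 3558.5 bases for PTHrP replicate 1 and 2296 and 3682.5 for PTHrP replicate 3. They were 3779.5 and 2284.5 bases for DsRed replicate 1 and 3729 and 2385 for DsRed replicate 3. DsRed replicate 1 was the lowest library in 16 and the highest in 4, and it was the lowest in 4 of the 5 cathepsins.

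**Figure D4:**
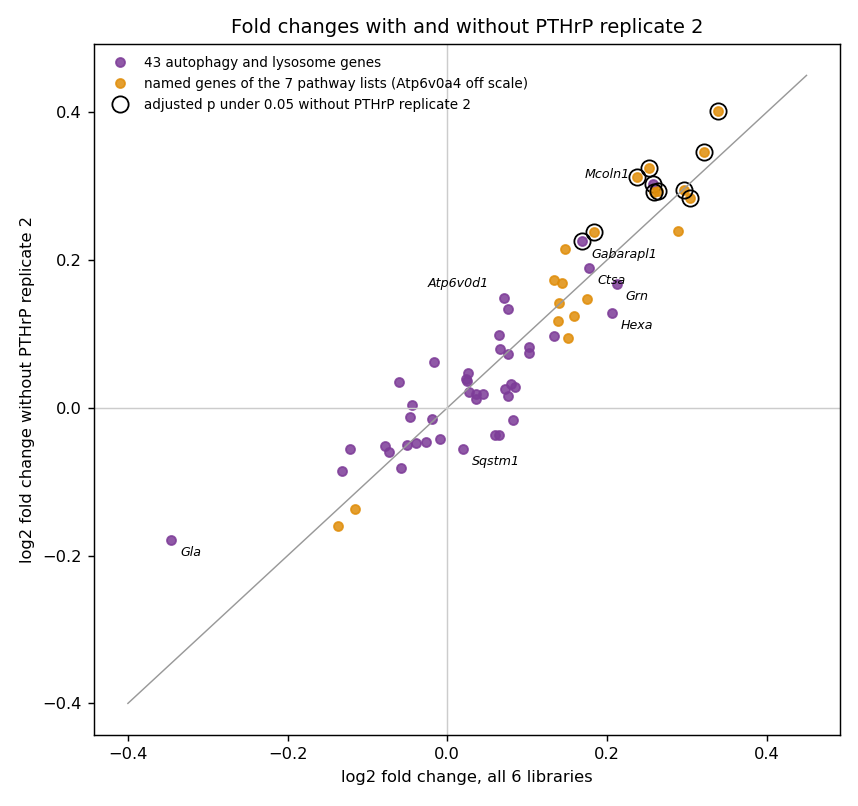
Log2 fold change with all 6 libraries (horizontal axis) and without PTHrP replicate 2 (vertical axis) of the 43 genes (purple) and of named genes from 7 related pathway lists (orange, Atp6v0a4 off scale); circles mark an adjusted p under 0.05 without that library, and the diagonal marks equal values. Mcoln1 (0.26 and 0.30) and Gabarapl1 (0.17 and 0.23) are the circled genes among the 43, and Gla moves from -0.35 to -0.18. Calcoco1, Epg5 and Hgsnat are not plotted.

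Levels per length spanned a wide range, as CPM per kilobase of the longest principal transcript. In DsRed the highest were Sqstm1 at 849, Psap at 581, Gaa at 435, Lamp1 at 408 and Atp6v1b2 at 218, and in PTHrP they were 861, 591, 443, 447 and 228. Gaa and Lamp1 differed by less than the sum of their SDs in both groups. The order changed when lengths came from all annotated exons, which put Psap first and Sqstm1 second. Atp6v1b2 then went from rank 5 to rank 10, at 116 in DsRed, and Hexa took rank 5. At the low end were Npc1 at 3.05 and Atg7 at 6.90 in DsRed, and 2.92 and 6.67 in PTHrP.

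**Figure D5:**
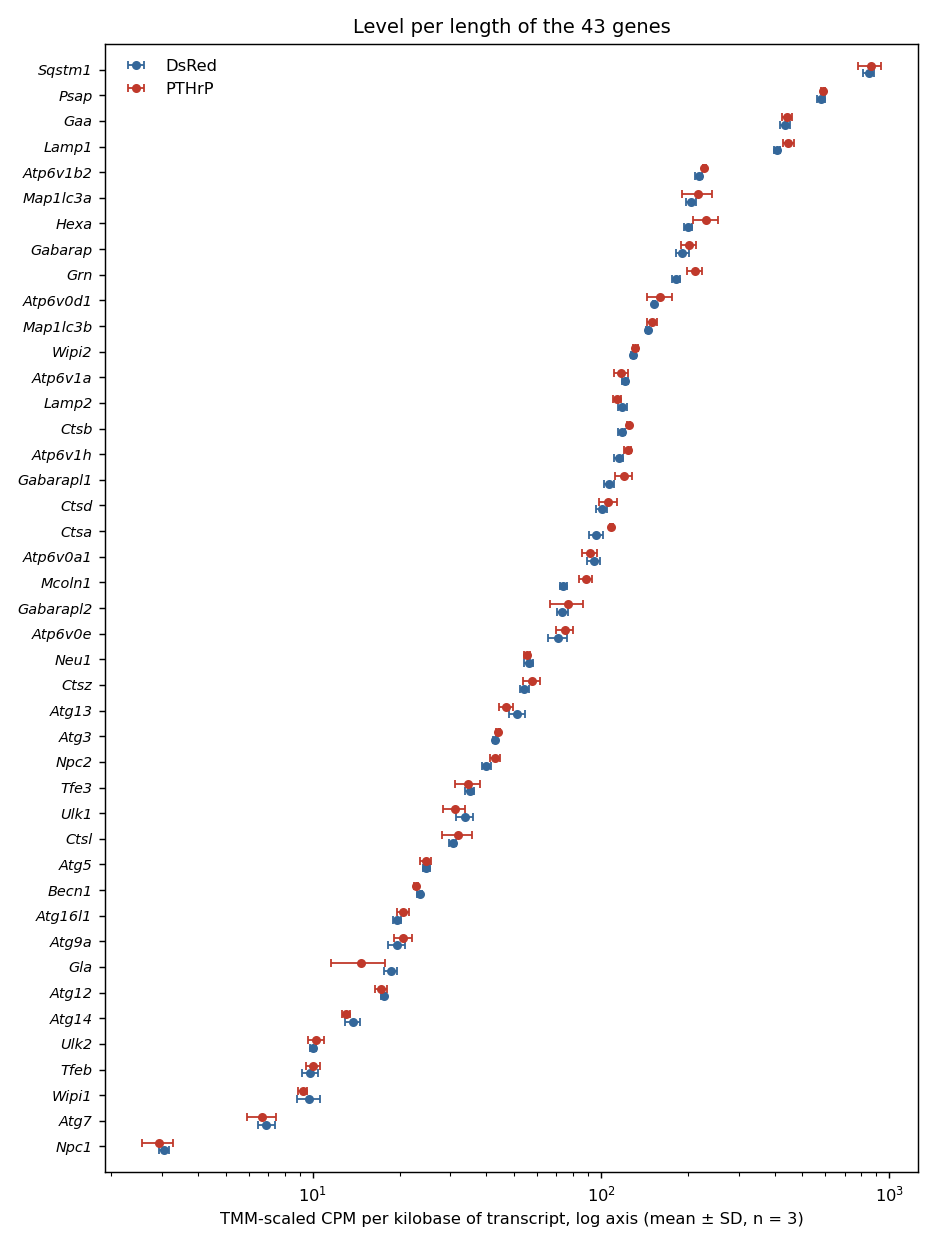
Level of the 43 genes as TMM-scaled CPM per kilobase of transcript on a log axis, mean ± SD of 3 libraries in each group. Sqstm1 is highest at 849 in DsRed and Npc1 lowest at 3.05, and the DsRed and PTHrP points nearly coincide for most genes.

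Beyond the 43, 7 lists of related pathway genes were examined, with 155 genes of which 148 could be tested. None passed in edgeR's quasi-likelihood test. At an unadjusted p under 0.05 there were 17 higher (11.5%) and 5 lower (3.38%), against 4.92% and 3.98% of all genes tested. In DESeq2, where 0.643% of all genes passed the adjusted threshold, 3 of the 148 passed, namely Dpp7, Lamtor1 and Tex264. The fold change was positive in 107 of 148 (72.3%), with a median of 0.06, and 48.7% were positive over all genes. Of the 148, 33 were non-overlapping with PTHrP higher (22.3%, against 8.45% of all genes) and 11 with PTHrP lower (7.43%, against 7.88%). The lists were chosen with earlier results of these data known, so these counts describe the lists and are no test of them.

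Lamtor1, an anchor of mTORC1 on the lysosome, had the smallest p of the lists. It had 98.4, 105 and 103 CPM in PTHrP and 83.4, 81.8 and 83.2 CPM in DsRed, a clear separation (0.30, SE 0.06, adjusted p = 0.155). It had an adjusted p of 0.0194 without PTHrP replicate 2, and from 0.00523 to 0.820 over all alternatives. In the list of 24 tested genes of mTORC1 at the lysosome, 17 were positive with a median of 0.07. Akt1s1, which encodes the mTORC1 inhibitor PRAS40, had 0.18 (adjusted p = 0.393), and Rragb, a Rag GTPase, had 0.14 (adjusted p = 0.585).

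Of 37 other lysosomal hydrolases and cofactors tested, 26 were positive with a median of 0.05. The peptidase Dpp7 had 65.8, 61.9 and 64.0 CPM in PTHrP and 53.2, 47.7 and 52.5 CPM in DsRed (0.32, SE 0.07, adjusted p = 0.216). Naglu, which degrades heparan sulfate, and Arsa, the arylsulfatase of sulfatide, both had 0.26 (adjusted p = 0.326 and 0.337). Of 16 other lysosomal membrane proteins, 11 were positive with a median of 0.05. The potassium and proton channel Tmem175 had 0.34 (adjusted p = 0.339), the chloride and proton exchanger Clcn7 0.25 (adjusted p = 0.337) and the cystine exporter Ctns 0.24 (adjusted p = 0.404).

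Of 17 cargo receptors, 13 were positive with a median of 0.07. Tex264, a receptor for autophagy of the endoplasmic reticulum, had 75.3, 77.7 and 78.9 CPM in PTHrP and 60.5, 65.1 and 63.1 CPM in DsRed (0.30, SE 0.06, adjusted p = 0.212). Retreg2, of the same reticulophagy family as FAM134B, had 0.16 (adjusted p = 0.415), and Optn, which binds ubiquitin on damaged mitochondria, had 0.14 (adjusted p = 0.567). Of 24 other core autophagy genes, 15 were positive with a median of 0.03, which was -0.02 without PTHrP replicate 1. Tmem41b (-0.14, adjusted p = 0.551), Stx17 (0.18, 0.591) and Atg4d (0.14, 0.593) had the smallest p values there.

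Of 15 other V-ATPase subunits tested, 13 were positive with a median of 0.08. Atp6v0b had 0.15 (adjusted p = 0.561), or 0.09 without PTHrP replicate 2, and Atp6v1g2 had 0.29 (adjusted p = 0.624). Atp6v0a4 had 10, 18 and 20 counts in PTHrP and 20, 26 and 61 counts in DsRed. Its fold change of -1.15 (adjusted p = 0.596) was -0.55 without DsRed replicate 3, the highest library. Of 15 genes of the tethering complex HOPS, retromer and the late endosome, 12 were positive with a median of 0.08. The phosphatase Pip4p1 (0.13, adjusted p = 0.544), the retromer subunit Vps26a (-0.12, 0.589) and the tether subunit Vps39 (0.15, 0.591) had the smallest p values.

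Without PTHrP replicate 2, 12 of these pathway genes passed, namely Akt1s1, Arsa, Calcoco1, Clcn7, Ctns, Dpp7, Epg5, Hgsnat, Lamtor1, Naglu, Tex264 and Tmem175. By list they were 4 lysosomal membrane proteins, 3 hydrolases, 2 genes of mTORC1 at the lysosome, 2 cargo receptors and 1 core autophagy gene, all with positive fold changes. The share of all genes that passed in that fit was 0.954%, and it compares 2 PTHrP libraries with 3 DsRed libraries.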

How the data were processed

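RNA from MIN6 cells was sequenced by the submitters in 6 libraries. Per the submitters' processing notes, reads were handled with bcl2fastq, STAR and featureCounts 2.0.3 of the Subread package on GRCm38; no source used here gives the annotation, the strand setting or the treatment of multi-mapping reads. The deposited values were raw counts per gene and library. After removal of 287 repeated rows, 55487 genes remained. Library totals were 84427033 to 94613684, and all pairs of libraries differed by more than sampling noise (chi-square per gene 8.96 to 69.8). Of the 43 genes, 16 share exon bases with another annotated gene, 15 of them with one on the opposite strand, and reads in those bases cannot be assigned with certainty. In 2 of the 16, Npc1 and Ctsz, the partner had more counts.

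Genes were filtered with filterByExpr, scaled with TMM factors and tested with edgeR 4.0.16 (quasi-likelihood F-test, robust, fitted on group, run in R 4.3.3). Tests were two-sided, p-values were adjusted by Benjamini-Hochberg over 21141 genes, and the threshold was 0.05. The dispersion corresponded to a biological coefficient of variation of 17.7%. Each SE was taken from the coefficient and the square root of its F, and 95% intervals rest on it. No sample was dropped or imputed. The edgeR, limma-voom and DESeq2 fits were run on simulated counts with known fold changes. The simulated spread was set rather than taken from these libraries, and no library was made to stand apart. Other steps were not simulated. Since nothing marks the replicates as separate cultures, p-values cover only the spread among these libraries, which could be technical. Lengths and gene positions came from GENCODE M21 on GRCm38, and shares within a family used the longest principal transcript. Promoter windows came from RefSeq and matched 35 of the 43 genes by symbol.

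Values in every library are given for the 8 genes with the smallest p, the 5 highest per length and those with non-overlapping groups, and the 3 genes of smallest p are named from each of the 7 pathway lists. Tfeb, Tfe3, Atg3, Atp6v0d1 and the overlap partners were given in full, and further pathway genes named, after their values were seen. The members and lists were chosen with earlier results of these data known. Alternatives were other scaling factors, other filters, DESeq2 1.42.0, limma 3.58.1 (voom, with and without quality weights), the replicate number as a term and each library left out in turn. Lengths from all exons were added after seeing the data.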

Additional observations from a re-analysis of the deposited data

How the results depend on the processing

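The number of genes past the threshold over all genes was 9 in edgeR's quasi-likelihood test with all libraries, TMM factors and filterByExpr. It was 14 with library sizes alone, 18 in limma-voom and 136 in DESeq2. With no filter on low counts it was 220, and in limma-voom with quality weights it was 254. It ran from 2 to 213 when each library was left out in turn, with the highest count without PTHrP replicate 2 and the lowest without DsRed replicate 2. Among the 43 genes, 2 passed with no filter on low counts (Mcoln1, adjusted p = 0.0378, and Gla), 2 passed with quality weights (Mcoln1, adjusted p = 0.00876, and Ctsa), and 0 to 2 passed when each library was left out. The cause of these differences was not tested. The median log2 fold change of the 43 was 0.0201 to 0.0562 with each library left out and was positive under all 15 alternatives. Alternatives were followed for 64 named genes, which do not include Calcoco1, Epg5 and Hgsnat. None of the 64 passed in edgeR's test with all libraries, TMM factors and filterByExpr, so there was no called direction to reverse. A call could change only from not passing to passing, and it did so in 30 of 959 combinations of gene and alternative. In 15 genes, none called, the sign changed under at least 1 alternative. The correlations of same-numbered deviations were 0.0235, -0.106 and 0.0246, within the range of differently numbered ones (-0.155 to 0.131). These values cannot show whether same-numbered libraries were prepared together, which the labels do not say. With the replicate block, 7 genes passed and none of the 43, and Mcoln1 had 0.26 (adjusted p = 0.427). The SE of the 43 genes was at most 0.14 on the log2 scale, and the part of depth in it was not tested.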
